A study of Homo sapiens with 12 samples.

Results

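HOX genes are the homeobox genes of the HOXA, HOXB, HOXC and HOXD clusters, taken here as every gene symbol of those letters followed by a number only, on probe sets that carry 1 symbol. The arrays named 28 of them, of 19775 genes in all: 1 HOXA gene (HOXA2), 10 HOXB, 9 HOXC and 8 HOXD genes, on 44 probe sets. The RefSeq gene table lists 39 human HOX genes, and the other HOXA genes and HOXD3 were not analysed here. Where a gene had several probe sets, the one of highest mean log2 signal over the 12 arrays was used.

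The samples were 2 human pancreatic cancer cell lines, BxPC-3, from a primary tumour, and AsPC-1, from ascites and called metastatic by the study. Each line received PMA (phorbol-12-myristate 13-acetate), which activates protein kinase C and served the study as its inducer of invasion, or was left untreated. The 4 groups of 3 arrays were BxPC-3 with PMA, BxPC-3 untreated, AsPC-1 with PMA and AsPC-1 untreated. PMA was given at 1 µM for 4 h in 0.1% DMSO, the labels do not say whether untreated cells received DMSO, and both groups had spent the night before in 2.5% serum. The replicates were cell passages: 7, 9 and 11 of BxPC-3 and 8, 10 and 12 of AsPC-1, in PMA and untreated arrays alike. Each line is 1 established line, so a line difference is a difference of these 2 lines, and no passage number held both, so line and passage cannot be told apart.

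HOX proteins are homeodomain transcription factors that assign position along the body axis. Genes of low number lie at one end of a cluster and are used anteriorly, genes of high number lie at the other end and are used posteriorly. They bind DNA with TALE homeodomain partners (PBX, MEIS), are held silent by polycomb proteins and kept on by trithorax proteins, and are induced by retinoic acid. Members of the HOXB and HOXC clusters are often active in carcinoma cells.

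Values are the authors' array signals on a linear scale, and differences are on log2(signal + 3), which understates changes of dim genes. A gene was tested when it exceeded the array's 40th percentile of probe set signal (8.18 to 10.2) on at least 3 arrays, and a difference was called at an adjusted p (limma, Benjamini-Hochberg over 16099 genes) under 0.05. In this bulk RNA, fewer expressing cells and less RNA per cell cannot be told apart. The epithelial markers KRT8, KRT18, KRT19 and EPCAM were high in both lines. KRT19 averaged 4500 and 4130 in BxPC-3 with and without PMA, and 6520 and 5980 in AsPC-1. Other epithelial markers were uneven. KRT7 averaged 2990 and 2680 in BxPC-3 with and without PMA, against 97.9 and 120 in AsPC-1. CDH1 averaged 4620 and 3500 against 819 and 862, and MUC1 795 and 675 against 163 and 148. CLDN4 averaged 1780 and 86.4 against 1030 and 297. Leukocyte and endothelial markers were low. The fibroblast marker LUM averaged 35.7 and 52.3 in BxPC-3 with and without PMA, against 2560 and 2480 in AsPC-1. Of the 5 other fibroblast markers, COL1A1 averaged 71.7 and 55.7 in BxPC-3 with and without PMA, against 25.5 and 31.9 in AsPC-1, COL3A1 49.3 and 51.8 against 3.04 and 4.72, and DCN 18.5 to 25.5 in the 4 groups, while COL1A2 and PDGFRB averaged under 10 in each. Their part in the line differences was not tested. SMAD4, known to be lost in BxPC-3, averaged 2.03 and 1.74 in BxPC-3 with and without PMA and 149 and 168 in AsPC-1. The ACTB ratio of 3′ to 5′ probe sets, a measure of RNA integrity, was 1.84 to 2.02 in BxPC-3 with PMA, against 2.56 to 4.14 in untreated BxPC-3. In AsPC-1 it was 1.79 to 2.32 with PMA and 2.22 to 2.27 untreated. The GAPDH ratio was 0.987 to 1.12 over the 12 arrays. The part of RNA integrity in the PMA results of BxPC-3 and in the line differences was not tested.

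Replicate 1 of AsPC-1 with PMA, from passage 8, stood apart from its group. PLAUR, the urokinase receptor and a known PMA target, gave 881 on it, against 4290 and 4144 on the other AsPC-1 PMA arrays and 447 to 668 in untreated AsPC-1. HBEGF gave 386, against 1760 and 2100, and 140 to 217 untreated. A list of 6 PMA response genes, chosen with their response in these data known, held both. Of its other members, PLAU gave 1506, against 5674 and 5356, and 224.5 to 388.6 untreated. DUSP5 gave 107, against 157.7 and 155.5, and 21.4 to 35.1 untreated. EGR1 gave 1458, against 7160 and 7028, and 570 to 1140 untreated. FOS gave 84.4, against 686 and 912, and 44.2 to 113 untreated. On replicate 1, all of these but FOS lay above every untreated AsPC-1 array. Across genes, which are not independent replicates, the correlation of replicate 1 was 0.921 with the rest of its group and 0.964 with untreated AsPC-1 of passage 8. Both AsPC-1 arrays of passage 8 were also the brightest of their group in most HOX genes: the PMA array in 16 and the untreated array in 17 of the 26 HOX genes tested (61.5% and 65.4%, against 47.5% and 44.9% of all genes). The HOX calls that use the AsPC-1 PMA arrays, and the PMA counts printed for gene lists in AsPC-1, are therefore given with and without PMA replicate 1.

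3 stretches of sequence bear on the results below. They are shown because each is shared by genes whose signals can be set side by side. The first is the RefSeq window from 250 bases before to 50 after a gene start (GRCh38.p14, chr12:54016638-54016937, plus strand) that HOXC4 and HOXC5 have in common, and the RefSeq gene table gives HOXC6 the same start; capitals mark the 50 bases after it. The other 2 are the windows of HAGLROS (chr2:176177916-176178215, plus strand) and HOXD1 (chr2:176188418-176188717, plus strand); capitals mark the bases (136 and 195) that lie in a window of HAGLR, a noncoding RNA read from the opposite strand.
HOXC4 and HOXC5: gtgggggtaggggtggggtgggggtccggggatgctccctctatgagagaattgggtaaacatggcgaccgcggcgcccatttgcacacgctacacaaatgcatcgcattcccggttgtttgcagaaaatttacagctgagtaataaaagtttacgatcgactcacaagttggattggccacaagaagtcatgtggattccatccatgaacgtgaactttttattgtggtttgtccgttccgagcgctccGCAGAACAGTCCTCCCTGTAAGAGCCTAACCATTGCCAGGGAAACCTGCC
HAGLROS: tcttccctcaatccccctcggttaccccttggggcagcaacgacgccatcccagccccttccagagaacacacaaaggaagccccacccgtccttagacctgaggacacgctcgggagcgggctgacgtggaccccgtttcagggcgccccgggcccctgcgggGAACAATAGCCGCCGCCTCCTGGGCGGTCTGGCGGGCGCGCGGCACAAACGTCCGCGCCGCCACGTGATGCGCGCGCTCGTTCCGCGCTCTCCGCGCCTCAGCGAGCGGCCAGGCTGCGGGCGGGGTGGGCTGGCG
HOXD1: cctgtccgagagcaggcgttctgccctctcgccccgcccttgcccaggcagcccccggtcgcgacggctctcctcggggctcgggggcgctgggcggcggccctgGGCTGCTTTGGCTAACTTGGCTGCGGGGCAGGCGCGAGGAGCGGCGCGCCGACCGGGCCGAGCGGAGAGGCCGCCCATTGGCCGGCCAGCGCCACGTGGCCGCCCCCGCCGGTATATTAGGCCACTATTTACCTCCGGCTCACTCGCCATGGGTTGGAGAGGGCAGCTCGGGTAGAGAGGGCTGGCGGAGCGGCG
The GC content was 51.7% in the HOXC4 window, 71.7% in the HAGLROS window and 74.3% in the HOXD1 window, with 15, 37 and 36 CpG sites. The motif TGANTCA, the site of the AP-1 factors that PMA activates (any base at N, both strands, no other motif searched), was in none of the 3 windows and in 7.71% of 35116 RefSeq windows of the same length. Windows were found for 11 of the 28 HOX genes, with none for HOXB2 to HOXB9, HOXC6 or HOXC8 to HOXC13.

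The brightest HOX signals were from HOXB and HOXC genes. HOXB7, HOXB3 and HOXC6 were among the 4 brightest HOX probe sets of both lines, joined by HOXC4 in BxPC-3 and by HOXB2 in AsPC-1. Probe sets differ in brightness for equal RNA, so this ranks probe sets and not transcript amounts. In BxPC-3, 3 HOX genes reached a signal of 100 on any array, and in AsPC-1 9 did. Of the 26 HOX genes tested, 17 passed the signal filter on at least 3 arrays of each line, 1 (HOXD10) did so in BxPC-3 alone and 4 (HOXB1, HOXC5, HOXC8 and HOXB8) in AsPC-1 alone. The HOXD genes were dim throughout: none exceeded 41.3 on any array, and their median mean signal was 7.67. HOXB1, HOXB13, HOXC5, HOXC8 and HOXC13 also stayed under 41.3 on every array. HOXC12 (0.407 to 13.6) and HOXD12 (0.194 to 0.776) did not pass the filter.

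**Figure D1:**
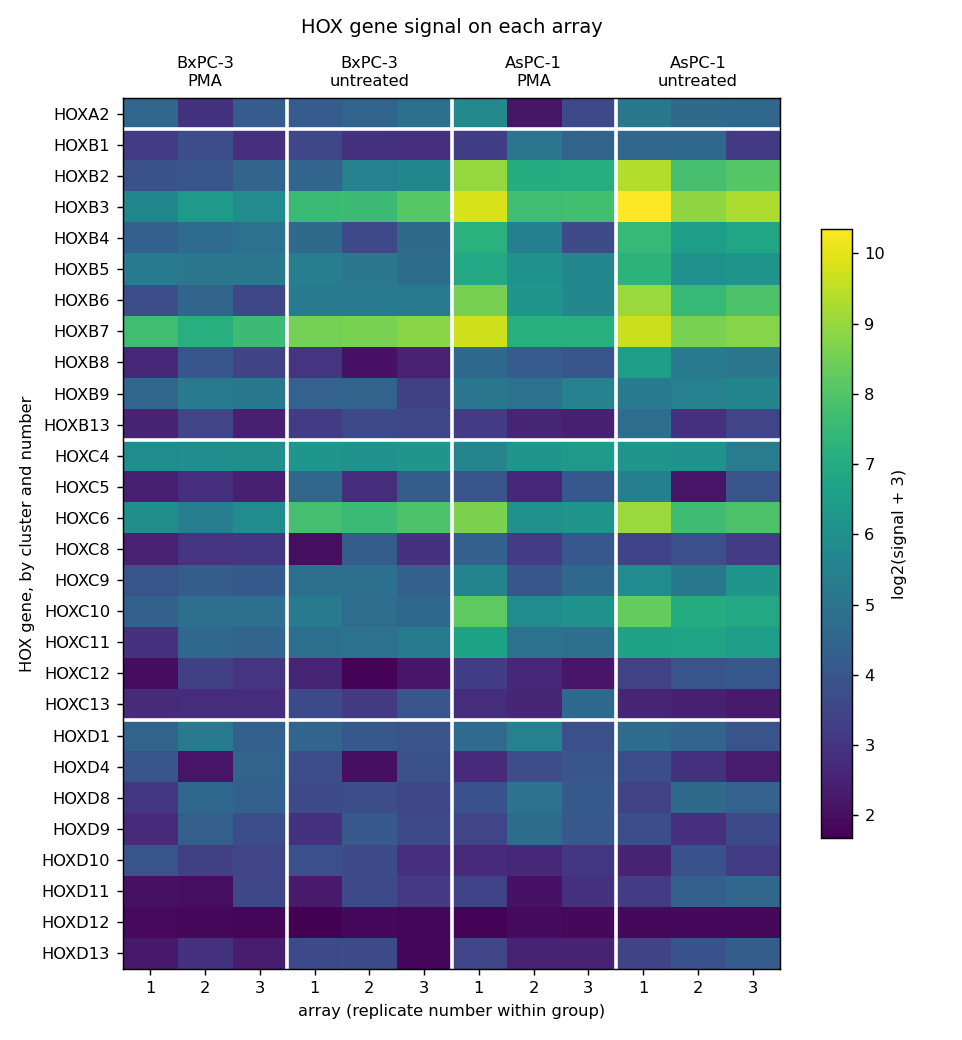
Signal of the 28 HOX genes (rows, by cluster and number) on the 12 arrays (columns, replicates 1 to 3 of each group), as log2(signal + 3). The bright rows lie in the HOXB and HOXC clusters, untreated BxPC-3 arrays are dimmer than untreated AsPC-1 arrays in HOXB2 to HOXB6 and HOXC10, replicate 1 is the brightest AsPC-1 column of both groups in most rows, and no HOXD gene exceeds a signal of 41.3.

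Untreated BxPC-3 cells had less signal than untreated AsPC-1 cells from most of the HOXB cluster and from part of the HOXC cluster. Of 26 HOX genes tested, 10 were called lower and 0 higher in BxPC-3 (15.6% of all genes tested were called lower and 16.8% higher); at an unadjusted p under 0.05 there were 11, the other being HOXC13. The 10 were 7 of 10 HOXB genes and 3 of 8 HOXC genes; none of 7 HOXD genes and not HOXA2 was called. The median difference was -0.64 over the 26 genes and -1.58 over the HOXB genes, against -0.08 over all genes tested. In all 10 the 3 untreated BxPC-3 arrays lay below the 3 untreated AsPC-1 arrays (25.6% of all genes were separated in that direction). All 10 but HOXB8 passed the signal filter on at least 3 arrays of each line.

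By position, 2 of 5 anterior genes (numbers 1 to 3), 4 of 11 central genes (4 to 8) and 4 of 10 posterior genes (9 to 13) were called lower in untreated BxPC-3. In the HOXB cluster the called genes ran through HOXB2, HOXB3, HOXB4, HOXB5 and HOXB6, then HOXB8 and HOXB9. HOXB1, HOXB7 and HOXB13 were not called. In the HOXC cluster they were the neighbours HOXC9, HOXC10 and HOXC11.

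The anterior gene HOXB2, a hindbrain patterning gene, gave 19.6, 42.2 and 47.4 in untreated BxPC-3, against 651, 217 and 263 in untreated AsPC-1. The groups did not overlap, and the difference was -3.18 ± 0.53 (SE, n = 3 each; limma adjusted p = 0.000377), 9.06-fold lower in BxPC-3. HOXB3, its neighbour, which acts in the hindbrain and in blood progenitors, gave 187, 194 and 272 in BxPC-3, against 1303, 474 and 621 in AsPC-1. Its difference was -1.75 ± 0.50 (adjusted p = 0.0157), a call that was lost without the untreated AsPC-1 replicate 1 (0.0713) or the untreated BxPC-3 replicate 1 (0.0544) or 2 (0.0522). A second, dim HOXB3 probe set differed by -1.50.

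Among the central HOXB genes, HOXB4, known for expanding blood stem cells, gave 22.4, 8.95 and 22.6 in untreated BxPC-3, against 176, 88.9 and 107 in untreated AsPC-1 (difference -2.62 ± 0.65, adjusted p = 0.00692). HOXB5, with a role in vessel and enteric nerve development, gave 38.6, 31.5 and 23.7 in BxPC-3, against 153, 62.4 and 68.2 in AsPC-1 (-1.42 ± 0.37, adjusted p = 0.00919). HOXB6 gave 34.5, 34.1 and 34.3 in BxPC-3, against 528, 178 and 238 in AsPC-1 (-2.93 ± 0.60, adjusted p = 0.00189), and its dimmer second probe set differed by -1.37. In each of these 3 genes every BxPC-3 array lay below every AsPC-1 array, and the AsPC-1 array of passage 8 was the highest.

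HOXB7, a gene often raised in carcinomas, lies between HOXB6 and HOXB8 and was not called. It gave 369, 382 and 442 in untreated BxPC-3, against 804, 384 and 433 in untreated AsPC-1. The groups overlapped, and the difference was -0.36 (95% interval -1.52 to 0.79, adjusted p = 0.653). The other HOXB7 probe sets differed by -0.20 and -0.44.

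HOXB8 gave 5.02, 1.26 and 2.60 in untreated BxPC-3, against 87.6, 36.4 and 31.9 in untreated AsPC-1 (-3.12 ± 0.46, adjusted p = 0.000128). It is a myeloid and spinal cord gene whose second probe set, dim in both lines, differed by -0.45, so that with unmarked probe sets only the call was lost (adjusted p = 0.646). HOXB9, a posterior gene of thorax and mammary gland, gave 18.1, 18.7 and 6.98 in BxPC-3, against 35.5, 41.3 and 45.3 in AsPC-1 (-1.39 ± 0.34, adjusted p = 0.00673). Both genes were lower on every BxPC-3 array. HOXB13, the prostate and tail gene at the far end of the cluster, was not called (-0.28, interval -1.35 to 0.79) on its chosen probe set, which stayed under 25 on every array. Its second probe set averaged 1.18 in untreated BxPC-3 and 25.6 in untreated AsPC-1, a difference of -2.24.

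In the HOXC cluster the 3 called genes were posterior ones. HOXC10, a gene of limb and lumbar patterning, gave 34.8, 24.2 and 21.5 in untreated BxPC-3, against 311, 129 and 117 in untreated AsPC-1 (-2.54 ± 0.52, adjusted p = 0.00194). HOXC11 gave 26.0, 27.3 and 35.3 in BxPC-3, against 98.2, 103 and 89.3 in AsPC-1 (-1.63 ± 0.50, adjusted p = 0.023). HOXC9 gave 25.8, 25.7 and 17.2 in BxPC-3, against 55.9, 33.4 and 71.5 in AsPC-1, and its difference of -1.09 ± 0.39 was at the threshold (adjusted p = 0.0495). HOXC9 kept its call in 3 of 12 fits that left out 1 array, with an adjusted p of up to 0.171 (without the untreated AsPC-1 replicate 3), and HOXC11 in 8 of 12, with an adjusted p of up to 0.0709 (without the untreated BxPC-3 replicate 1).

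The central HOXC genes were not called. HOXC4, one of the 4 brightest HOX probe sets of BxPC-3, gave 72.5, 64.8 and 71.0 in untreated BxPC-3, against 71.6, 66.3 and 37.7 in untreated AsPC-1, a difference of 0.28 (interval -0.30 to 0.87). HOXC6 gave 216, 190 and 243 in BxPC-3, against 527, 199 and 238 in AsPC-1, a difference of -0.44 (interval -1.63 to 0.76). In both genes the groups overlapped. Among the 26 HOX genes tested, the largest difference not called was that of the posterior gene HOXC13 (1.13, adjusted p = 0.106), with 9.21, 5.81 and 12.5 in BxPC-3 against 2.89, 2.46 and 1.96 in AsPC-1. Most of these values are near or under the filter signal.

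After PMA, 6 of the 26 HOX genes were called lower in BxPC-3 than in AsPC-1 and 0 higher (15.2% of all genes lower, 18.3% higher), all of them among the 10 untreated: HOXB2, HOXB3, HOXB5, HOXB6, HOXC10 and HOXC11. The median difference was -0.60, against 0.03 over all genes tested. HOXB2 gave 11.1, 12.2 and 19.9 in BxPC-3 with PMA, against 502, 128 and 132 in AsPC-1 with PMA, 12.2-fold lower (-3.61 ± 0.53, adjusted p = 0.000132). HOXB6 gave 10.3, 19.7 and 8.82, against 377, 71.5 and 48.3 (-2.89 ± 0.60, adjusted p = 0.00202). In both genes all 3 BxPC-3 arrays were below all 3 AsPC-1 arrays.

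HOXB3 was 5.51-fold lower (-2.46 ± 0.50, adjusted p = 0.00165), and HOXC10, with 17.7, 26.2 and 26.0 in BxPC-3 against 291, 57.1 and 67.7 in AsPC-1, was 4.15-fold lower (-2.05 ± 0.52, adjusted p = 0.00775). HOXB5 (-1.08, adjusted p = 0.0374) and HOXC11 (-1.49, adjusted p = 0.0348) lay closer to the threshold. Without AsPC-1 PMA replicate 1, 5 HOX genes were called (16.9% of all genes lower), HOXB2, HOXB3, HOXB6 and HOXC10 with HOXB1 in place of HOXB5 and HOXC11. The differences without that array were -2.97 for HOXB2, -1.76 for HOXB3, -2.02 for HOXB6 and -1.33 for HOXC10, each nearer to 0 than with it, and HOXB1 differed by -1.53. HOXB1 exceeded the filter signal on 0 BxPC-3 and 4 AsPC-1 arrays. It gave 6.21, 10.2 and 4.11 in BxPC-3 with PMA, against 6.78, 31.2 and 19.25 in AsPC-1 with PMA. Its dim second probe set differed by 0.42 after PMA with all arrays kept. The largest difference not called among the 26 was that of HOXC6 (-1.21, adjusted p = 0.113), which was lower on all 3 BxPC-3 arrays. HOXB8 (-0.93), HOXB9 (-0.19), HOXB4 (-0.78) and HOXC9 (-0.62) were not called here, and the test of the difference between the 2 line comparisons is given with the PMA responses below.

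**Figure D2:**
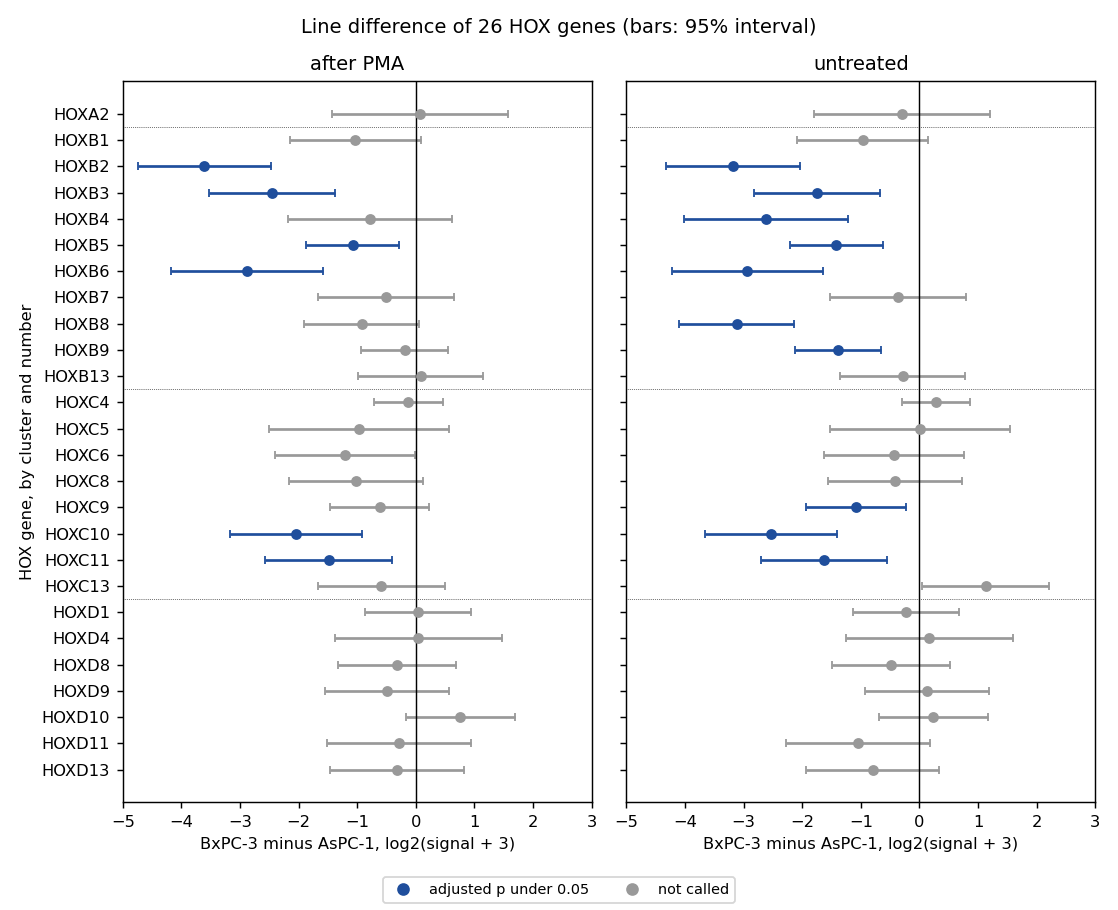
BxPC-3 minus AsPC-1 difference of 26 HOX genes in log2(signal + 3), after PMA (left) and untreated (right), with 95% intervals from limma (points: estimates, dark: adjusted p under 0.05). HOXB2, HOXB3, HOXB5, HOXB6, HOXC10 and HOXC11 are called lower in BxPC-3 in both panels, and no HOXD gene is called in either.

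**Figure D3:**
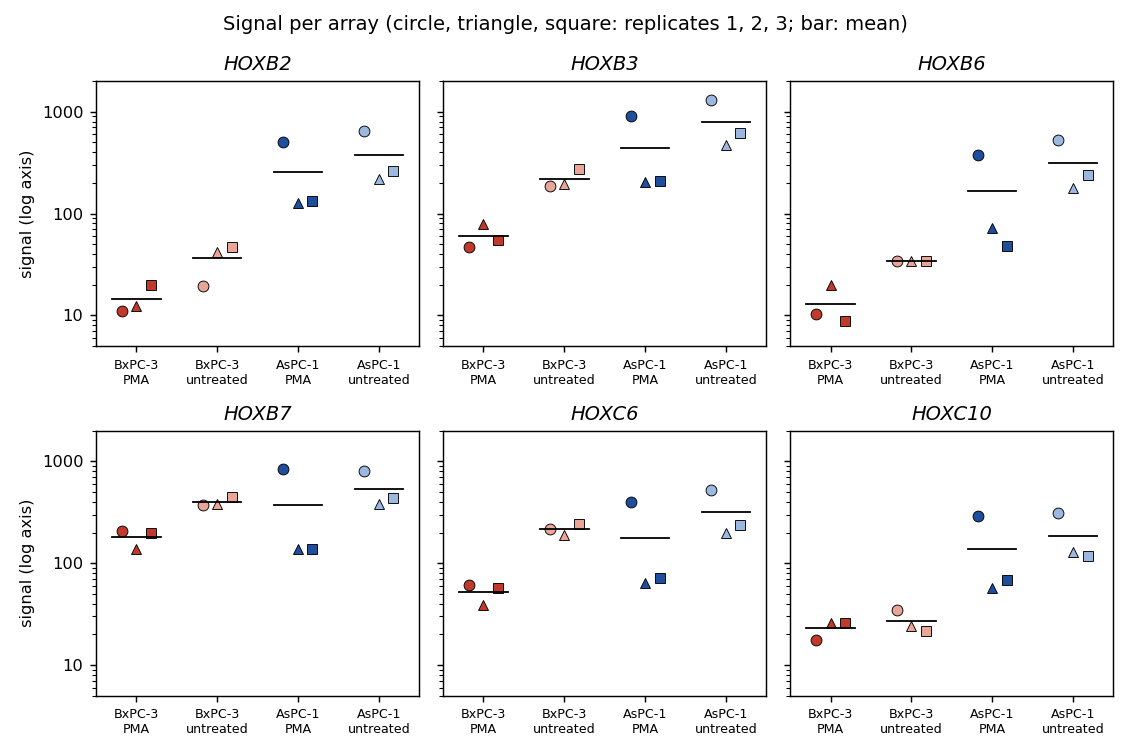
Signal on each array (log axis) of 6 HOX genes in the 4 groups, with circle, triangle and square for replicates 1, 2 and 3 and a bar for the group mean. HOXB2, HOXB6 and HOXC10 are lower on every BxPC-3 array than on every AsPC-1 array, HOXB3, HOXB7 and HOXC6 are lower on every BxPC-3 PMA array than on every untreated one, and AsPC-1 PMA replicate 1 lies within or above the range of the untreated AsPC-1 arrays in all 6 genes.

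In BxPC-3 treated with PMA for 4 h, HOXB3 fell past the threshold, and HOXC6 lay just short of it. HOXB3 gave 47.0, 78.2 and 55.2 with PMA, against 187, 194 and 272 untreated. The groups did not overlap, and the difference was -1.82 ± 0.50 (limma adjusted p = 0.0493), 3.52-fold lower with PMA. It was the 1 call among 26 HOX genes (3.3% of all genes tested were called lower and 2.52% higher), and 3 HOX genes had an unadjusted p under 0.05. The call lies at the threshold: it held in 4 of 12 fits that left out 1 array, all 4 of them without an AsPC-1 array, with an adjusted p of up to 0.188 (without the untreated BxPC-3 replicate 3), and the dim second probe set differed by -0.20.

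HOXC6, a homeobox gene of trunk and limb that is often raised in carcinomas, had the largest PMA difference of the 26 HOX genes tested in BxPC-3 but missed the threshold. It gave 61.2, 38.5 and 57.1 with PMA, against 216, 190 and 243 untreated, 4.02-fold lower (-2.01 ± 0.55, adjusted p = 0.0505). HOXB7 gave 206, 138 and 196 with PMA, against 369, 382 and 442 untreated, 2.22-fold lower (-1.15 ± 0.54, adjusted p = 0.241), with its other probe sets at -1.10 and -1.15. HOXB6 was 2.44-fold lower (-1.29, adjusted p = 0.244), and HOXB2 2.19-fold lower (-1.13, adjusted p = 0.245). In HOXC6, HOXB7 and HOXB6 all 3 PMA arrays lay below all 3 untreated arrays, and in HOXB2 they overlapped.

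8 of 26 HOX genes were lower on every PMA array of BxPC-3 than on every untreated one, where 21.9% of all genes were. The highest share was in the HOXC cluster, with 5 of 8 genes (HOXC4, HOXC6, HOXC9, HOXC11 and HOXC13), and all 8 HOXC differences were below 0, from -2.01 to -0.18. HOXC4, which shares its annotated start with HOXC6 and whose window is printed above, gave 56.3, 58.0 and 59.3 with PMA, against 72.5, 64.8 and 71.0 untreated (-0.25, interval -0.83 to 0.33). The HOXC6 interval (-3.20 to -0.81) meets that of HOXC4 at its edge, and the responses of these genes were not tested against each other. The probe set of HOXC6 carries Affymetrix's mark for probes that match more than 1 transcript. The chosen probe sets of HOXB5, HOXB6, HOXB7, HOXB8, HOXC13 and HOXD1 carry it too. HOXB9 was the only HOX gene higher on every PMA array (17% of all genes were), with 20.0, 35.6 and 33.0 against 18.1, 18.7 and 6.98 untreated (0.94, adjusted p = 0.133). None of the 7 HOXD genes was separated in either direction.

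The PMA and untreated arrays of a line share their passages, so the comparison was also made with the passage as a block. In that fit 5 HOX genes were called lower in BxPC-3 with PMA (6.06% of all genes lower): HOXC6 (adjusted p = 0.00144), HOXB3 (0.00167), HOXB2 (0.0153), HOXB7 (0.0295) and HOXB6 (0.0315). Each of the 5 fell within all 3 passages. HOXC6 fell by 1.77, 2.22 and 2.03 on the log2 scale within passages 7, 9 and 11, and HOXB3 fell by 1.93, 1.28 and 2.24. Leaving out AsPC-1 PMA replicate 1, which enters only the shared spread, 4 were called (HOXB3, HOXB6, HOXB7 and HOXC6; 9.17% of all genes lower).

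In AsPC-1, 0 of 26 HOX genes passed the threshold with PMA (limma; 0.721% of all genes called lower, 1.24% higher), and 7 had an unadjusted p under 0.05. The median difference was -0.68, against -0.10 over all genes tested. The largest difference not called among the 26 was that of HOXB4 (-1.48, adjusted p = 0.276). HOXC6 gave 399, 63.9 and 71.3 with PMA, against 527, 199 and 238 untreated. HOXB7 gave 843, 138 and 138 with PMA, against 804, 384 and 433 untreated. In both genes PMA replicate 1 lay among or above the untreated arrays, while replicates 2 and 3 lay below all 3 of them.

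Without AsPC-1 PMA replicate 1, 10 HOX genes were called lower and 0 higher with PMA, where 13.5% of all genes were called lower. They were HOXB7 (-1.87, adjusted p = 0.000274), HOXC6 (-2.07, 0.000651), HOXB6 (-2.20, 0.00158), HOXB3 (-1.80, 0.00208) and HOXB4 (-2.36, 0.00376), with HOXC11, HOXC9, HOXA2, HOXC10 and HOXB2 (adjusted p 0.00909 to 0.0466). The array left out had the partial PMA response given above. The fit without that array kept the untreated AsPC-1 array of passage 8, the brightest of its group in most HOX genes. It did not pair arrays by passage. Within passages 10 and 12 the PMA minus untreated differences were -1.46 and -1.63 for HOXB7, -1.59 and -1.70 for HOXC6, and -1.21 and -1.55 for HOXB3. They were -1.28 and -2.23 for HOXB6, and -1.09 and -3.08 for HOXB4. Without both AsPC-1 arrays of passage 8 the count was 9 (14.3% of all genes lower).

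Blocked on passage over all 12 arrays, 3 HOX genes were called lower in AsPC-1 (2.83% of all genes lower): HOXC6 (-1.23, adjusted p = 0.0233), HOXB3 (-1.10, 0.0272) and HOXB6 (-1.33, 0.0412). HOXC6 fell by 0.40, 1.59 and 1.70 on the log2 scale within passages 8, 10 and 12. HOXB6 fell by 0.48, 1.28 and 2.23, and HOXB3 fell by 0.53, 1.21 and 1.55. All 3 were also called in BxPC-3 in the blocked fit. In all 3 the smallest change was that of passage 8.

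**Figure D4:**
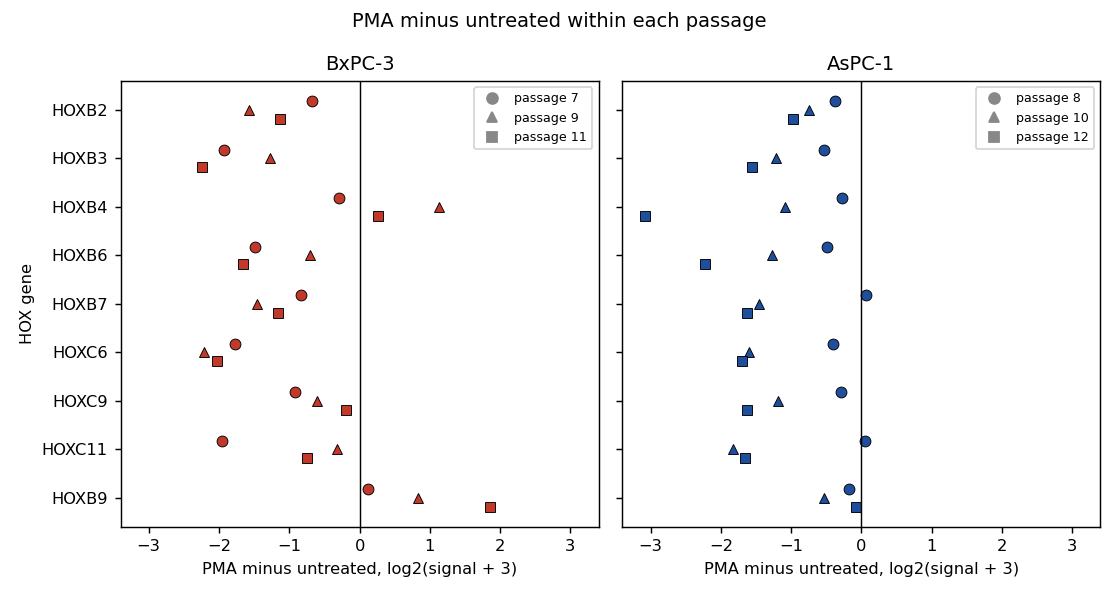
PMA minus untreated difference in log2(signal + 3) of 9 HOX genes (rows) within each passage of BxPC-3 (left) and AsPC-1 (right), 1 symbol a passage. HOXB2, HOXB3, HOXB6, HOXC6 and HOXC9 lie below 0 in every passage of both lines, the AsPC-1 passage 8 circles lie nearest to 0 in all rows but HOXB9, and HOXB9 lies above 0 in every BxPC-3 passage.

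No HOX gene's PMA response was called different between the lines (limma; 0 of 26, with 0.317% and 0.174% of all genes called with a higher and a lower response in BxPC-3), and 3 had an unadjusted p under 0.05. HOXB8 had a difference of responses of 2.19 (adjusted p = 0.264), HOXC13 of -1.71 (adjusted p = 0.505) and HOXB9 of 1.20 (adjusted p = 0.49). For HOXB3 the responses differed by -0.72 (interval -2.23 to 0.80) and for HOXC6 by -0.78 (interval -2.47 to 0.91), intervals wide enough to hold a change of over 4-fold in one direction. Without AsPC-1 PMA replicate 1, 1 gene was called, HOXB4 (2.72, adjusted p = 0.0341), at 2.54% of all genes called with a higher response. HOXB4 gave 17.7, 23.1 and 27.6 in BxPC-3 with PMA, against 22.4, 8.95 and 22.6 untreated, and 145, 40.3 and 10.1 in AsPC-1 with PMA, against 176, 88.9 and 107 untreated.

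Several noncoding RNAs of the clusters differed between the lines. Of 11 tested from a list of 17, 3 were called higher and 5 lower in untreated BxPC-3 (16.8% and 15.6% of all genes), with a median difference of -0.85 (-0.08 over all genes). HOTAIR, which is read from between HOXC11 and HOXC12 on the opposite strand and is known for binding chromatin regulators, gave 1.34, 6.20 and 8.54 in untreated BxPC-3, against 258, 116 and 95.5 in untreated AsPC-1 (-4.23, adjusted p = 0.000354). Its line difference had the same sign as those of HOXC9, HOXC10 and HOXC11. The 3 called higher were 2 noncoding RNAs of the HOXD cluster and HOXA-AS2. HAGLROS gave 71.4, 81.1 and 89.4 in untreated BxPC-3, against 2.07, 0.566 and 1.89 in untreated AsPC-1 (4.22, adjusted p = 3.33e-07), and HAGLR was higher by 2.87 (adjusted p = 0.000131). HOXA-AS2, an antisense RNA of the HOXA cluster, gave 45.6, 57.2 and 86.6 in untreated BxPC-3, against 34.3, 10.0 and 28.5 in untreated AsPC-1 (1.37, adjusted p = 0.0214), and its sign turned under 1 of 13 other settings.

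HAGLROS and HAGLR stayed higher in BxPC-3 after PMA (HAGLROS by 3.44 and HAGLR by 2.92), and none of the 7 HOXD coding genes tested was called. Most of these lay near or under the filter signal, and HOXD3 was not analysed. HOXD1, whose window overlaps one of HAGLR by the 195 bases in capitals above, differed by -0.23 untreated (interval -1.14 to 0.68). That range leaves out the HAGLR difference, but HOXD1 and HAGLR were not tested against each other. HAGLROS and HAGLR, whose windows share 136 bases, differed in the same direction. HOXA-AS3, another antisense RNA of the HOXA cluster, was called lower in untreated BxPC-3 (-2.09, adjusted p = 0.00682). None of the 11 was called with PMA in either line (limma), and in AsPC-1 2 had an unadjusted p under 0.05 and in BxPC-3 0. Without AsPC-1 PMA replicate 1, 2 were called lower with PMA in AsPC-1, HOTAIR (-3.08, adjusted p = 0.00101) and HOXA-AS3 (-2.06, adjusted p = 0.00787), and 0 higher (13.5% of all genes lower, 6.09% higher).

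**Figure D5:**
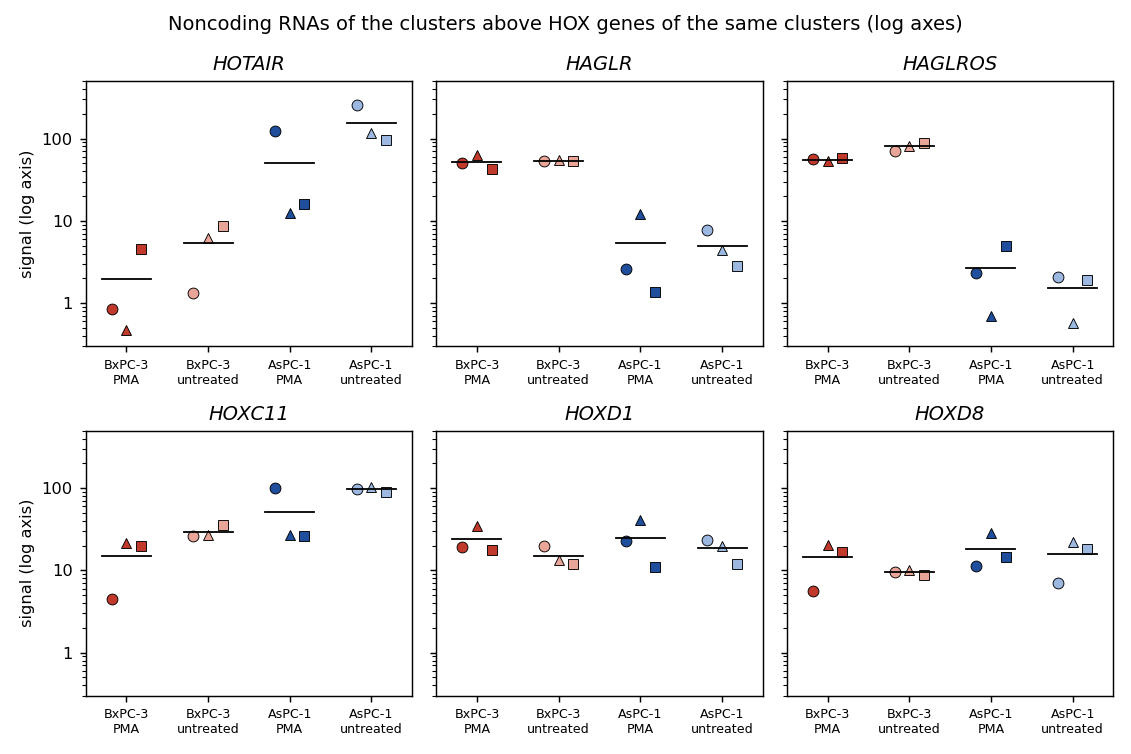
Signal on each array (log axis) of 3 noncoding RNAs of the HOXC and HOXD clusters (top) and 3 HOX genes of the same clusters (bottom) in the 4 groups, with symbols and bars as in the plot of HOX signals. HOTAIR and HOXC11 are lower on every untreated BxPC-3 array than on every untreated AsPC-1 array, HAGLR and HAGLROS are above 40 on every BxPC-3 array and under 13 on every AsPC-1 array, and HOXD1 and HOXD8 overlap between the lines.

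Of the partners and regulators of HOX proteins, the polycomb genes and upstream regulators called were nearly all higher in untreated BxPC-3. TALE cofactors and trithorax genes were called in both directions. Of all genes tested, 16.8% were called higher and 15.6% lower in untreated BxPC-3 (median -0.08), beside which the counts of each list are given. Of 10 TALE cofactors tested, 4 were called higher and 2 lower in untreated BxPC-3 (median 0.25). MEIS1, which with PBX proteins binds DNA beside HOX proteins, gave 150, 219 and 244 in untreated BxPC-3, against 14.0, 21.1 and 14.1 in untreated AsPC-1 (3.41, adjusted p = 5.21e-05). PBX3, another partner of HOX proteins, was called lower (-1.28, adjusted p = 0.0032). With PMA in BxPC-3, MEIS2 fell by 1.43 on the log2 scale (adjusted p = 0.0195) and the repressor TGIF1 rose by 1.34 (adjusted p = 0.0352), and in AsPC-1 0 of 10 were called (2 at an unadjusted p under 0.05). In the fit without AsPC-1 PMA replicate 1, PBX4 was called higher (1.91) and MEIS2 lower (-1.16) in AsPC-1 (6.09% of all genes higher, 13.5% lower).

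Of 26 polycomb genes, 10 were called higher and 1 lower in untreated BxPC-3 (median 0.29, with 16.8% and 15.6% of all genes called). The one lower was PCGF6, a subunit of a variant polycomb repressive complex, with 1.67, 0.610 and 1.48 in BxPC-3 against 72.3, 59.8 and 51.8 in AsPC-1 (-3.91, adjusted p = 2.82e-06). Among those higher were JARID2 (1.55) and EZH2, the H3K27 methyltransferase (0.78, adjusted p = 0.00646). With PMA, PHC2 rose in both lines (1.04 in BxPC-3 and 0.73 in AsPC-1, 0.70 without AsPC-1 PMA replicate 1). Without that array 3 polycomb genes were called higher and 5 lower in AsPC-1 (6.09% and 13.5% of all genes). With it 2 and 0 were called (1.24% and 0.721% of all genes). Without it EZH2 was among those lower (-0.73, limma adjusted p = 0.00503). Of 16 trithorax and H3K27 demethylase genes, 1 was called higher (KDM6A, 0.75, a sign that turned under 1 of 13 other settings) and 1 lower (DPY30, -1.40) in untreated BxPC-3, and none was called with PMA in either line (4 in BxPC-3 and 3 in AsPC-1 at an unadjusted p under 0.05). With the same array left out, 2 of the 16 were called higher in AsPC-1, among them the H3K27 demethylase KDM6B (2.02, adjusted p = 3.57e-05), and 5 lower. In that fit 6.09% of all genes were called higher and 13.5% lower in AsPC-1. KDM6B was also called higher in BxPC-3 there (1.09, limma adjusted p = 0.00256), as the 1 gene higher, with 3 lower. Of all genes, 5.7% were called higher and 9.17% lower in BxPC-3.

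Upstream regulators were called higher in untreated BxPC-3 in 7 of 18 cases and lower in 0 (median 0.51, with 16.8% and 15.6% of all genes called). CRABP2, which carries retinoic acid to its receptors, gave 586, 605 and 662 in BxPC-3, against 50.6, 50.7 and 37.4 in AsPC-1 (3.67, adjusted p = 4.75e-07). CYP26B1, which degrades retinoic acid, was higher by 2.11 (adjusted p = 0.00872). GMNN, a replication licensing inhibitor that also binds HOX proteins, fell by 1.44 on the log2 scale with PMA in BxPC-3 (adjusted p = 0.00821). The insulator protein CTCF was the other gene called lower with PMA in BxPC-3 (-0.79, adjusted p = 0.0484), and 0 of 18 were called in AsPC-1 (limma; 5 at an unadjusted p under 0.05). Without AsPC-1 PMA replicate 1, 1 was called higher and 3 lower in AsPC-1, GMNN (-1.48) and CTCF (-0.87) among those lower (6.09% of all genes higher, 13.5% lower).

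Genes that flank the clusters were called lower in untreated BxPC-3 in 6 of 13 cases and higher in 0 (median -0.47, with 15.6% and 16.8% of all genes called). SKAP1, the neighbour of the HOXB cluster beyond HOXB1, gave 2.95, 23.8 and 13.4 in untreated BxPC-3, against 118, 43.0 and 39.2 in untreated AsPC-1 (-2.16, adjusted p = 0.00407). SKAP2, beside the HOXA cluster, differed by -1.31 (adjusted p = 1.85e-05), and CALCOCO1, near the HOXC cluster, differed by -1.43 (adjusted p = 0.0271). Of 6 other homeobox genes tested, 2 were called higher and 2 lower: EN1, a neural patterning gene, gave 146, 127 and 133 in untreated BxPC-3 against 0.920, 8.03 and 12.9 in untreated AsPC-1 (3.97, adjusted p = 7.72e-06).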

How the data were processed

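Total RNA of 12 cultures was hybridised to Affymetrix arrays of 54675 probe sets. The deposited values are intensities on a linear scale, 1 per probe set and array, from MAS5 per the submitters' processing notes; each array has a trimmed mean of about 100, the scaling target seen in the values. The depth of an array is not a count, so the number of arrays limits the precision. From the authors' deposited intensities, log2(signal + 3) was computed with no further scaling, after leaving out 62 control probe sets. Symbols came from the platform annotation: 41091 probe sets carry 1 symbol, 1801 several and 11721 none, and only the first were used. Per gene the probe set of highest mean was kept.

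Differences came from limma 3.58.1 in R 4.3.3: 1 fit of 4 group means over 12 arrays, moderated with a trend, Benjamini-Hochberg adjustment over 16099 genes that exceeded the 40th percentile on at least 3 arrays, threshold 0.05. The fit was tested on simulated data. An exact permutation test of 3 against 3 arrays cannot go below 0.1, so none was used. The labels say that the replicates are cell passages and that PMA and untreated arrays of a number share one, so the numbers pair the samples within a line. For BxPC-3 the correlations of same-passage deviations from the group means were -0.054, -0.126 and -0.059, and for AsPC-1 they were 0.411, 0.206 and 0.157. The fit with passage as a block was an alternative. In the PMA comparisons it used passage as a fixed term, in the line comparisons as a random term.

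The members, gene lists and settings were chosen with earlier results of these data known. Genes named are HOX members past the threshold in any comparison, the 4 of highest mean signal in each line, the largest difference not called in each comparison, and at most 4 genes past the threshold per list; others were named after their values were seen, beside those they neighbour or as called in an alternative fit. Sequence windows are RefSeq's (GRCh38.p14). Plots used matplotlib 3.10.9 in Python 3.11.15.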

Additional observations from a re-analysis of the deposited data

How the results depend on the processing

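No HOX gene called changed direction under any alternative. The 10 HOX genes called between the untreated lines, and the 6 called between the lines after PMA, numbered within 1.5 times of that under every alternative, with 7 to 10 and 4 to 7 calls when 1 array was left out. HOXB2, HOXB4, HOXB5, HOXB6, HOXB9 and HOXC10 kept their untreated call under all alternatives run. HOXB5 has only marked probe sets and was absent from the fit with unmarked probe sets. There HOXB6 differed by -1.37 (limma adjusted p = 0.0303). After PMA, HOXB2, HOXB3, HOXB6 and HOXC10 did so, while HOXB5 was lost in 6 of 12 fits without 1 array (adjusted p up to 0.114) and HOXC11 in 2 of 12, without AsPC-1 PMA replicate 1 (0.114) or BxPC-3 PMA replicate 1 (0.165). The PMA count in BxPC-3 (1) was 0 with a pseudocount of 1 or 16, with no filter, with the mean of a gene's probe sets or with moderation without a trend, 2 with median centring or the 60th percentile filter, 5 with the comparison's own 6 arrays (where 3535 of all 16099 genes were called), and 0 to 4 with 1 array left out. With passage as a replicate block it was 5, and in AsPC-1 3 (against 0). The block changed no other HOX call. HOXB3 with PMA in BxPC-3 lost its call in 6 of 13 alternatives other than leaving out 1 array. Quantile normalization was among them (limma adjusted p = 0.0527), and there the BxPC-3 count stayed 1 because another HOX gene was called. With 1 array left out the AsPC-1 count ran from 0 to 10 and that of differing responses from 0 to 1, both highest without AsPC-1 PMA replicate 1. In an alternative chosen after seeing the data, without both AsPC-1 arrays of passage 8, these counts were 5 in BxPC-3, 9 in AsPC-1 and 1 for differing responses. Of the other named genes, TGIF1 with PMA kept its call in 6, CTCF with PMA in 3, PHC2 in AsPC-1 in 5, and MEIS2 with PMA and CALCOCO1 in 9 each of the 12 fits without 1 array. Most HOXD genes, HOXB1, HOXB13, HOXC5, HOXC8, HOXC12 and HOXC13 lie near or under the filter signal, where these arrays limit what can be measured.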
